A study of Homo sapiens with 9 samples.

Results

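The genes described here encode the heat shock chaperones of the cytosol and the mitochondria with their co-chaperones and the factors that switch them on, measured in MDA-MB-231 breast cancer cells made resistant to a taxane. The 45 members were chosen by name, and a probe set was taken when its annotation named 1 of them. Of the 45, 43 had such a probe set, and HSF2 and AHSA1, with none annotated to them, are not analysed here. The 43 lay on 74 of the 22215 human probe sets, 63 that name 1 gene and 11 that name several. In a table of 1 probe set per gene 40 members stood among 11963 genes. HSPA1A, HSPA8 and TCP1, found only on probe sets that name several genes, are given from the same fit run on single probe sets.

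MDA-MB-231 is an established human breast cancer line, grown here as an adherent epithelial culture from mammary gland. The docetaxel-resistant line was kept in medium with 1 µM verapamil and 2 nM docetaxel, the paclitaxel-resistant line with 1 µM verapamil and 7 nM paclitaxel, and the sensitive cells with 1 µM verapamil alone. Verapamil, an inhibitor of the efflux pump P-glycoprotein, was thus present in all 3 groups. Each group has 3 Affymetrix arrays from separate passages, but each resistance is 1 line, so errors and p-values measure the spread among passages, and the selected line cannot be told apart from the drug in its medium. The doses differ, so the paclitaxel-resistant minus docetaxel-resistant comparison is one of lines, not of compounds.

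Chaperones hold, fold or release other proteins. HSP70 proteins bind exposed stretches of unfolded chains under the control of HSP40 partners, which bring clients and trigger ATP hydrolysis, and of nucleotide exchange factors, among them the HSP110 and BAG proteins. HSP90 takes over partly folded clients such as kinases and steroid receptors with a set of co-chaperones, small heat shock proteins hold unfolded chains without ATP, and the ring-shaped chaperonins enclose single proteins, tubulin and actin among the clients of the cytosolic one. Mitochondria have their own HSP70, HSP90 and chaperonin. Under heat and other protein damage HSF1 binds heat shock elements, arrays of the unit NGAAN in alternating orientation, and raises transcription of many of these genes.

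Intensities below are the deposited values on a linear scale, and differences are on the log2(intensity + 16) scale after quantile normalisation, which understates changes that start from a low intensity. Median intensity per array ran from 33.7 to 43.9, between 24% and 27% of probe sets lay under 16, and values near 0 hold no order. The sources hold no statement on which probe sets were detected. Precision is set by the 3 arrays a group. Of the 6 epithelial markers the keratins KRT7, KRT8, KRT18 and KRT19 carried the signal, EPCAM stood at 9.93 to 27.3, and the summed intensity was 6316 to 7326 in docetaxel-resistant, 6227 to 6859 in paclitaxel-resistant and 6254 to 7430 in sensitive arrays. The sum of 4 mesenchymal markers was 5085 to 5352 and 5805 to 6642 in the 2 resistant lines, against 9168 to 11147 in sensitive cells, and that of 3 endothelial markers 52.5 to 59.9 and 43.1 to 65.5, against 92.8 to 143. Of the mesenchymal markers VIM and FN1 fell as called in both lines, while ZEB1 and CDH2 were dim and not called. Of the endothelial markers only PECAM1 fell as called, and CDH5 and VWF lay at 0.01 to 9.94, near the floor. KRT7 rose by 0.55 (adjusted p = 0.0325) in docetaxel-resistant and by 0.87 (adjusted p = 0.00284) in paclitaxel-resistant cells. The other epithelial markers were not called, and KRT18, EPCAM and CDH1 had the opposite sign in both lines. The sum of 4 luminal markers was 143 to 154 and 149 to 183 in the 2 resistant lines, against 130 to 138 in sensitive cells, and of these FOXA1, at a mean of 22.1 and 28.2 against 5.74, rose by 0.78 (adjusted p = 0.00189) and by 1.02 (adjusted p = 0.000345). The other luminal markers were not called: ESR1 differed by -0.17 and -0.052, GATA3 by -0.21 and -0.023, and PGR by 0.039 and 0.11. The sums of fibroblast, blood and melanocytic markers lay between 112 and 564 on every array. The excess of the 3′ over the 5′ control probe set of GAPDH was 0.0935 to 0.201 in paclitaxel-resistant and 0.00665 to 0.13 in docetaxel-resistant arrays, against 0.0145 to 0.0389 in sensitive ones, on the log2 scale. For actin it was -0.125 to 0.172 and -0.15 to -0.108, against -0.261 to -0.0173 in sensitive arrays, so the groups overlapped on that control. The part of these differences in the results below was not tested, and in such cultures fewer cells expressing a gene and less RNA per cell cannot be told apart.

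Most members that passed the test were higher in the resistant lines, and most members did not pass it. In docetaxel-resistant cells 14 of the 40 members rose, 0 fell and 26 were not called (limma's moderated test, adjusted p below 0.05 over all genes). Those 35% stand beside 21% of all genes called, 10.8% higher and 10.2% lower. In paclitaxel-resistant cells 15 rose, 3 fell and 22 were not called, which is 45%, beside 21.6% of all genes, 10.8% higher and 10.7% lower. Brighter genes were called more often in general, and most members are bright. Shares of families and lists below are set beside all genes, dim ones included, where fewer were called than among bright genes. Among genes at or above the median level, 15 of 37 members (15 higher) stood beside 2232 of 5982 genes (1144 higher) in the docetaxel comparison. In the paclitaxel comparison 19 of 37 (15 higher) stood beside 2295 of 5982 (1189 higher). The docetaxel share of members called is thus near that of such genes, while all 15 of its called members were higher. The median difference of the 40 was 0.23 in the docetaxel-resistant and 0.17 in the paclitaxel-resistant line, against -0.051 and -0.025 over all genes. On the normalised scale the resistant and sensitive arrays did not overlap in 55% of members in the docetaxel comparison (36.8% of all genes) and in 52.5% in the paclitaxel comparison (34.8% of all genes). The 2 comparisons share the sensitive arrays, so they are not independent. Without docetaxel-resistant replicate 3 or without sensitive replicate 3 the docetaxel count was 9 of 40, beside 1643 and 2016 of 11963 genes. Without paclitaxel-resistant replicate 1 or without sensitive replicate 2 the paclitaxel count was 11 of 40, beside 1896 and 2106 of 11963 genes.

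**Figure D1:**
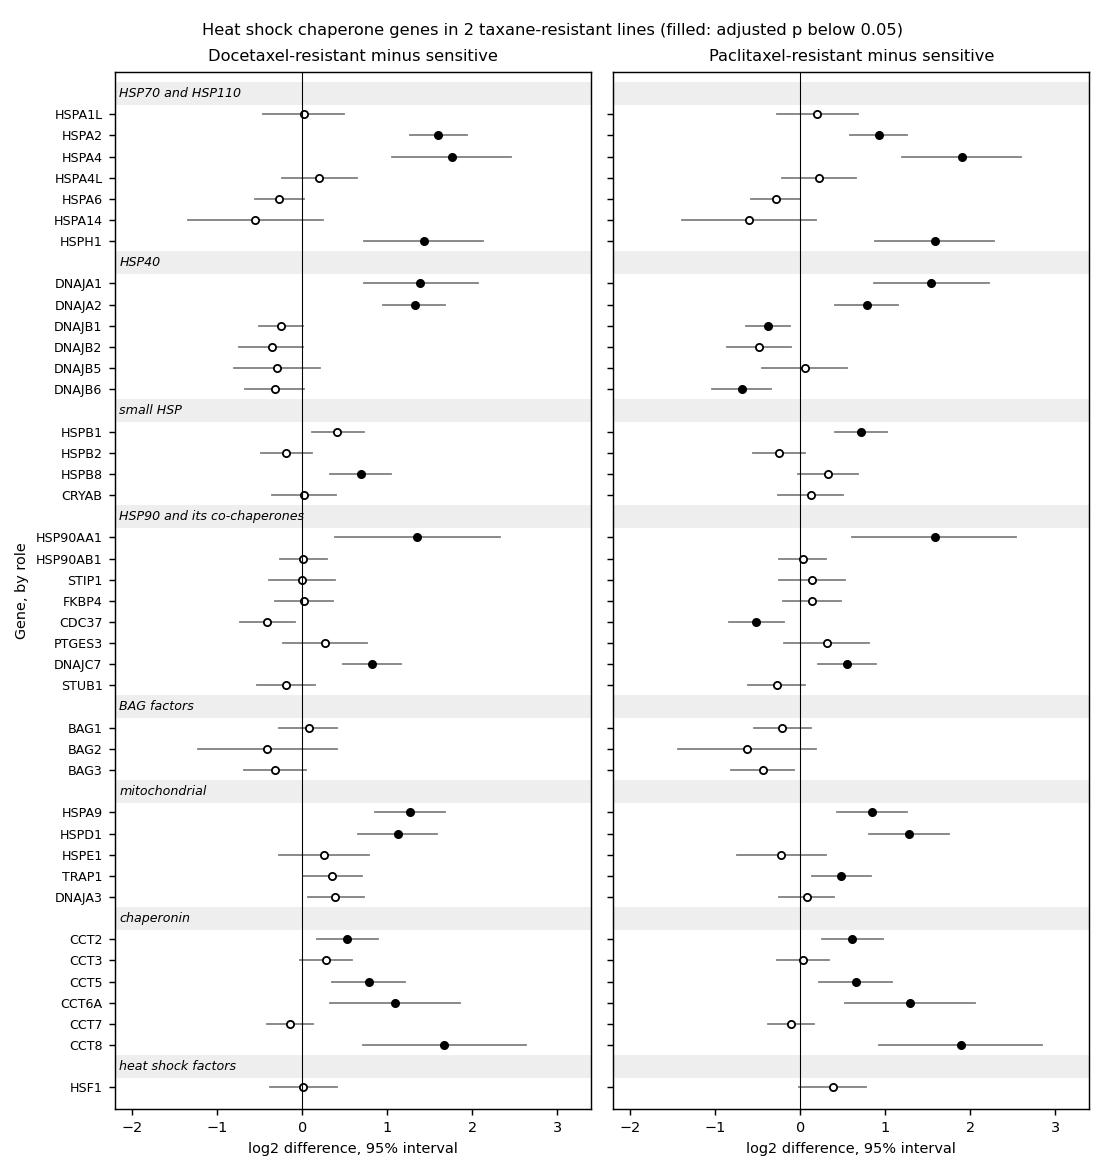
Log2 difference of each of the 40 members in the gene table, docetaxel-resistant minus sensitive and paclitaxel-resistant minus sensitive, grouped by role, with bars for the unadjusted 95% interval. HSPA4, CCT8, HSP90AA1 and DNAJA1 lie far to the right in both lines, while HSP90AB1 and the BAG factors lie near or left of 0.

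Promoters are shown for the 4 members with the smallest p of the moderated F test among those called in 1 direction in both lines. Also shown are those of 4 members chosen by name from the 16 with a heat shock element motif. All are the 180 bases before a transcription start, 5′ to 3′ on the gene's strand, from RefSeq (GRCh38.p14). Capitals mark a 3-unit motif, TTCNNGAANNTTC, in HSP90AA1, HSP90AB1 and HSPA6, and a 2-unit motif, GAANNTTC, in HSPA1A. The first 4 hold none of the motifs searched: HSPA2 (chr14:64540561-64540740, plus strand), DNAJA2 (chr16:46973675-46973854, minus), HSPA9 (chr5:138575402-138575581, minus) and HSPA4 (chr5:133051833-133052012, plus). The others are HSP90AA1 (chr14:102087045-102087224, minus, 1 of 2 starts), HSP90AB1 (chr6:44247763-44247942, plus, 1 of 3 starts), HSPA6 (chr1:161524360-161524539, plus) and HSPA1A (chr6:31815363-31815542, plus).
HSPA2: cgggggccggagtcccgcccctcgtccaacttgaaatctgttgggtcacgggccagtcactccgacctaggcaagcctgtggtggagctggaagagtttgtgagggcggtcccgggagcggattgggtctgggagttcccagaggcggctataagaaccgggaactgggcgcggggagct
DNAJA2: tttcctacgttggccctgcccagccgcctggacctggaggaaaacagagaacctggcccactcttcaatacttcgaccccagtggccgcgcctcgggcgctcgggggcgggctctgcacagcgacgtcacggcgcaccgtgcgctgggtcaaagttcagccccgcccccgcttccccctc
HSPA9: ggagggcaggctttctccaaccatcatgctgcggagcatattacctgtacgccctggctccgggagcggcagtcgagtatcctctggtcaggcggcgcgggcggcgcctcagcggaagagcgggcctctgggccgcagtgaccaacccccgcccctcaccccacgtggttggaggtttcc
HSPA4: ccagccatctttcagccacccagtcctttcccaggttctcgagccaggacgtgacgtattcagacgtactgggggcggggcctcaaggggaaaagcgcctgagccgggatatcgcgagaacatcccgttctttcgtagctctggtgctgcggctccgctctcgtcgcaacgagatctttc
HSP90AA1: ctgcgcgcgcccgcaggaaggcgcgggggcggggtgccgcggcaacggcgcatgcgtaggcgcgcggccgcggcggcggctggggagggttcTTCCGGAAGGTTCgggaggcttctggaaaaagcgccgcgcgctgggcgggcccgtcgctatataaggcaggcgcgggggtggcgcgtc
HSP90AB1: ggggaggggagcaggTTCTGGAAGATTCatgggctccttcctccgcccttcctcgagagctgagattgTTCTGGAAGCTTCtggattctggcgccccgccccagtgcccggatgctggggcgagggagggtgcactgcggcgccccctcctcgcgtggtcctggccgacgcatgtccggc
HSPA6: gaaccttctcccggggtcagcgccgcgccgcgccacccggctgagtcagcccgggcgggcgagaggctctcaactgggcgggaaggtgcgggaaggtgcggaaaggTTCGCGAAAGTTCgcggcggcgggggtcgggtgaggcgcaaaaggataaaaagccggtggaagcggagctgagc
HSPA1A: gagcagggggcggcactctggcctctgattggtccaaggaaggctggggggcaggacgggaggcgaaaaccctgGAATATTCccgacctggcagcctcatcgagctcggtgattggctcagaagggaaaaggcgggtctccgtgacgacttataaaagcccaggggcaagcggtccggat

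The search covered 250 bases before each start for GAANNTTC and TTCNNGAA and for the 3-unit forms GAANNTTCNNGAA and TTCNNGAANNTTC, which contain the 2-unit ones. Both 2-unit forms read the same on either strand, and the 3-unit forms are each other's reverse complement, so both strands were covered. Of the 45 members 38 had a promoter in the table. A 2-unit motif stood in 11.6% of all 35116 promoters and in 31.4% of the 51 of members, and a 3-unit motif in 0.441% and 11.8%. Of 12 members higher in both lines that had a promoter, 4 held a 2-unit and 2 a 3-unit motif. Of the 21 other members in the gene table with a promoter, 9 and 3 did. The 6 members with a 3-unit motif were HSPA6, HSPD1, HSP90AB1, DNAJB6, HSPA8 and HSP90AA1. Their differences from sensitive cells ran both ways, with 1.12 in docetaxel-resistant and 1.28 in paclitaxel-resistant cells for HSPD1, 0.013 and 0.029 for HSP90AB1, and -0.32 and -0.69 for DNAJB6. A match describes letters and is no evidence of binding.

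Among the 7 HSP70 and HSP110 members in the gene table HSPA2, HSPA4 and HSPH1 rose in each line, and 0 fell. That is 42.9% called beside 21% and 21.6% of all genes. It is near the share among genes at or above the median level, 2232 and 2295 of 5982. HSPA1A and HSPA8, outside that table, are given below from single probe sets. Of the 18 probe sets of this family 7 rose in each line, while 2 fell in docetaxel-resistant and 3 in paclitaxel-resistant cells. HSPA2 is an HSP70 best known for its role in male germ cells. It read 154, 172 and 160 in docetaxel-resistant arrays and 105, 71.2 and 86.2 in paclitaxel-resistant arrays, against 30.4, 30.3 and 50.2 in sensitive ones. The 3 groups did not overlap. HSPA2 rose by 1.60 ± 0.15 (SE, n = 3 per group, adjusted p = 3.79e-05) in the docetaxel-resistant line and by 0.92 ± 0.15 (adjusted p = 0.00142) in the paclitaxel-resistant line. The smallest p in the docetaxel comparison among the 40 members was that of HSPA2.

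HSPA4 and HSPH1, both of the HSP110 family that exchanges nucleotide on HSP70, showed the same order of size. HSPA4 read 309, 325 and 673 in docetaxel-resistant and 531, 404 and 360 in paclitaxel-resistant arrays, against 196, 57.2 and 86.2 in sensitive ones. All resistant arrays lay above all sensitive ones, and HSPA4 rose by 1.76 ± 0.32 (adjusted p = 0.00258) and by 1.90 ± 0.32 (adjusted p = 0.00153). Its 4 probe sets all rose in both lines, by 1.43 to 1.83 in docetaxel-resistant and by 1.44 to 1.90 in paclitaxel-resistant cells. HSPH1 read 211, 228 and 516 in docetaxel-resistant and 534, 252 and 204 in paclitaxel-resistant arrays, against 97.5, 65.6 and 103 in sensitive ones. It rose by 1.43 ± 0.32 (adjusted p = 0.00793) and by 1.58 ± 0.32 (adjusted p = 0.00438), and docetaxel-resistant replicate 3 and paclitaxel-resistant replicate 1 stood well above the other arrays of their lines.

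The remaining HSP70 proteins in the gene table did not pass the test. HSPA6, a strictly heat-inducible HSP70 of human cells, stood at 53.9 to 79.3 on all 9 arrays, with -0.27 in docetaxel-resistant and -0.29 in paclitaxel-resistant cells. HSPA1L, a testis HSP70, differed by 0.017 and 0.20. HSPA14 differed by -0.56 and -0.60 with 1 sensitive array at 200 and the other two at 36.7 and 55.1, and HSPA4L lay at 7.85 to 30.8, near the floor. HSPA8, the constitutive cytosolic HSP70 that most cells make in bulk, is read by 3 probe sets that also name the small nucleolar RNA genes SNORD14C and SNORD14D in its introns. On probe set 208687_x_at HSPA8 read 4250, 4784 and 4478 in docetaxel-resistant and 4972, 3838 and 4241 in paclitaxel-resistant arrays, against 6433, 4845 and 5533 in sensitive ones. Its differences were -0.24 and -0.28 on that probe set and -0.093 and -0.062 on 221891_x_at, none called. On 210338_s_at they were -0.35 (adjusted p = 0.0944) and -0.41 (adjusted p = 0.0463), a call held under 7 of 19 alternatives, with adjusted p from 0.008 to 0.138.

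**Figure D2:**
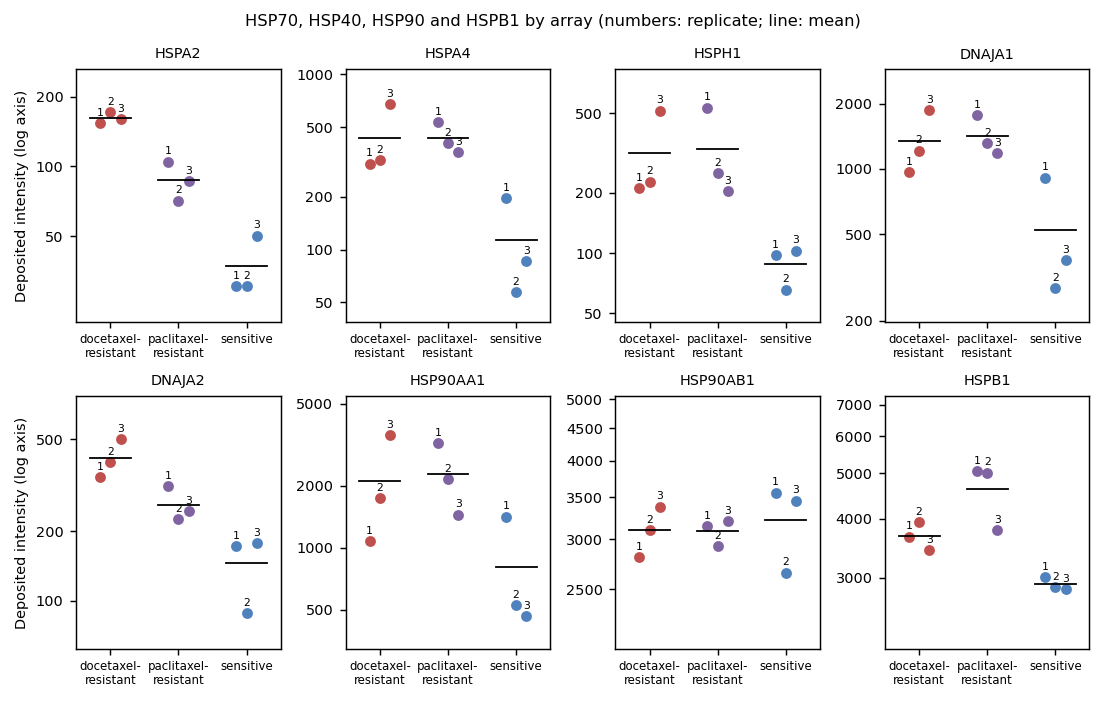
Deposited intensity (log axis) of HSP70, HSP110, HSP40 and HSP90 members and HSPB1 on each array, with the replicate number beside each point and a line at the group mean. HSPA2 separates the 3 groups, while HSP90AB1 sits between 2658 and 3559 on every array.

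One probe set of the stress-inducible HSP70 genes fell to under the offset in both resistant lines, and another of the same genes was not called. HSPA1A and HSPA1B are near-identical neighbouring genes on chromosome 6 that encode almost the same protein. Probe set 200799_at, annotated to both, read 11.4, 11.1 and 8.08 in docetaxel-resistant and 10.7, 6.79 and 10.7 in paclitaxel-resistant arrays, against 662, 775 and 892 in sensitive ones. It fell by 4.95 ± 0.17 (adjusted p = 3.40e-09, over all probe sets) and by 4.98 ± 0.17 (adjusted p = 4.43e-09). Every resistant value lies under 16, the offset, so the difference has no exact size: over all alternatives the difference ran from -6.18 to -3.52 and from -6.24 to -3.53, called in each.

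The other 2 probe sets of these genes did not show a loss of that size. Probe set 200800_s_at, annotated to HSPA1L, HSPA1B and HSPA1A, read 468, 502 and 479 in docetaxel-resistant and 361, 407 and 392 in paclitaxel-resistant arrays, against 754, 716 and 779 in sensitive ones. It fell by 0.71 ± 0.15 (adjusted p = 0.00577) and by 0.94 ± 0.15 (adjusted p = 0.000987). Probe set 202581_at, again annotated to HSPA1B and HSPA1A, read 600, 724 and 640 in docetaxel-resistant and 502, 480 and 473 in paclitaxel-resistant arrays, against 503, 601 and 793 in sensitive ones. It differed by -0.019 (95% interval -0.42 to 0.38) and by -0.37 (-0.77 to 0.028), neither called. The accession that the annotation gives for 200799_at and 200800_s_at is a transcript of HSPA1A in the RefSeq table, and that for 202581_at one of HSPA1B. Which transcripts the probes of each set bind was not tested, so a difference between the 2 genes cannot be told apart from other differences between the probe sets.

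Of the measured neighbours of HSPA1A and HSPA1B on chromosome 6, chosen after their values were seen, CLIC1, VWA7, VARS1, LSM2, HSPA1L, SLC44A4 and EHMT2 were not called in either line. NEU1, a lysosomal sialidase, fell by 0.59 (adjusted p = 0.0221) in docetaxel-resistant and by 0.76 (adjusted p = 0.0057) in paclitaxel-resistant cells. SNHG32, a small nucleolar RNA host gene, fell by 1.22 (adjusted p = 0.000909) in the docetaxel-resistant line and stood at -0.10 (adjusted p = 0.768) in the paclitaxel-resistant line.

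**Figure D3:**
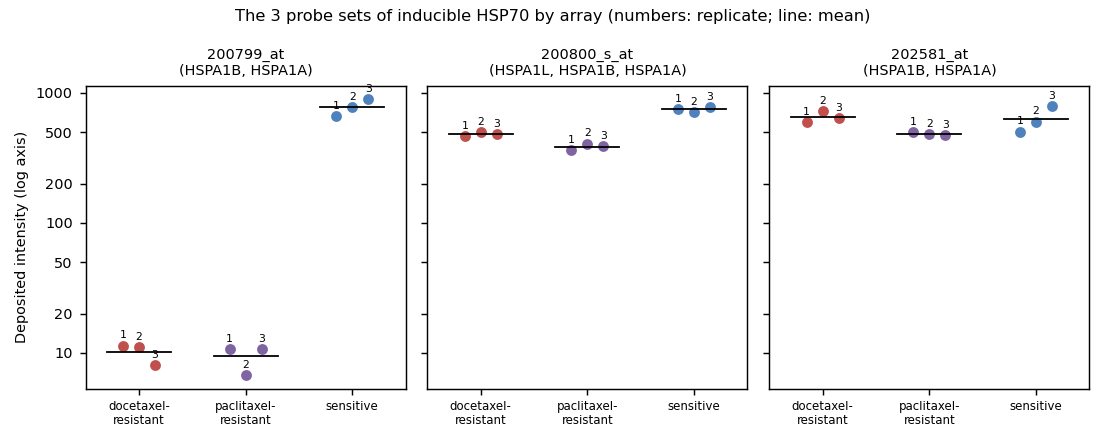
Deposited intensity (log axis, shared by the 3 panels) of the probe sets annotated to HSPA1A and HSPA1B on each array, with replicate numbers and a line at the group mean. On 200799_at the 6 resistant arrays lie at 6.79 to 11.4 and the sensitive ones at 662 to 892, while on 202581_at all 9 arrays lie at 473 to 793.

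Of the 6 HSP40 members, J-domain partners of HSP70, DNAJA1 and DNAJA2 rose in each line, and DNAJB1 and DNAJB6 fell in the paclitaxel-resistant line only as called. The shares called, 33.3% and 66.7%, stand beside 21% and 21.6% of all genes. The first does not exceed the share among genes at or above the median level, 2232 of 5982. DNAJA1, the main cytosolic type A partner, read 968, 1214 and 1870 in docetaxel-resistant and 1767, 1320 and 1184 in paclitaxel-resistant arrays, against 912, 283 and 381 in sensitive ones. It rose by 1.39 ± 0.31 (adjusted p = 0.00777) and by 1.54 ± 0.31 (adjusted p = 0.0042), with the groups apart but sensitive replicate 1 close to the lowest resistant array. DNAJA2, its paralogue, read 343, 398 and 502 in docetaxel-resistant and 312, 225 and 244 in paclitaxel-resistant arrays, against 172, 88 and 177 in sensitive ones. It rose by 1.32 ± 0.17 (adjusted p = 0.000279) and by 0.78 ± 0.17 (adjusted p = 0.00649), and no groups overlapped.

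DNAJB1, the heat-inducible partner of HSP70, read 858, 999 and 943 in docetaxel-resistant and 856, 810 and 815 in paclitaxel-resistant arrays, against 1116, 977 and 1110 in sensitive ones. It fell by 0.38 ± 0.12 (adjusted p = 0.0396) in the paclitaxel-resistant line, where the call held under 8 of 20 alternatives, with adjusted p of 0.00352 to 0.101, and stood at -0.25 ± 0.12 (adjusted p = 0.159) in the docetaxel-resistant line. DNAJB6, which keeps aggregation-prone chains soluble, read 397, 521 and 562 in docetaxel-resistant and 444, 270 and 362 in paclitaxel-resistant arrays, against 706, 440 and 626 in sensitive ones. It fell by 0.69 ± 0.16 (adjusted p = 0.00922) in the paclitaxel-resistant line and stood at -0.32 ± 0.16 (adjusted p = 0.184) in the docetaxel-resistant line. Of its other probe sets, which also name TMEM135, 208811_s_at fell by 0.87 (adjusted p = 0.00204) and 208810_at stood at -0.026 in the paclitaxel-resistant line. Raw intensities of DNAJB6 on the first probe set overlap in both comparisons and separate only after normalisation, and without quantile normalisation its paclitaxel call ended (-0.70, adjusted p = 0.0579). DNAJB2 differed by -0.36 and -0.49 and DNAJB5 by -0.30 and 0.05, none called.

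Of 4 small heat shock proteins 1 rose in each line, a different one by the calls. That is 25% in each, near the 21% and 21.6% of all genes. HSPB1 (HSP27), an abundant small heat shock protein of epithelial cells, read 3668, 3933 and 3435 in docetaxel-resistant and 5059, 5019 and 3782 in paclitaxel-resistant arrays, against 3006, 2862 and 2836 in sensitive ones. It rose by 0.71 ± 0.14 (adjusted p = 0.00363) in the paclitaxel-resistant line and stood at 0.41 ± 0.14 (adjusted p = 0.0575) in the docetaxel-resistant line, where all 3 arrays also lay above the sensitive ones. HSPB8, which works with BAG3 in the removal of misfolded proteins by autophagy, read 160, 176 and 177 in docetaxel-resistant and 106, 126 and 122 in paclitaxel-resistant arrays, against 91.4, 87 and 77.4 in sensitive ones. It rose by 0.69 ± 0.16 (adjusted p = 0.0109) in the docetaxel-resistant line and stood at 0.33 ± 0.16 (adjusted p = 0.192) in the paclitaxel-resistant line. Between the lines neither gene differed by the test (0.30, adjusted p = 0.384, for HSPB1 and -0.36, adjusted p = 0.375, for HSPB8, paclitaxel-resistant minus docetaxel-resistant), so these calls do not show that the lines differ. HSPB2 and CRYAB, small heat shock proteins of muscle and lens, lay at 11.7 to 29.6.

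The cytosol has 2 HSP90 genes. HSP90AA1, the stress-inducible form, read 1076, 1742 and 3511 in docetaxel-resistant and 3213, 2145 and 1450 in paclitaxel-resistant arrays, against 1417, 528 and 466 in sensitive ones. Docetaxel-resistant and sensitive arrays overlapped, and paclitaxel-resistant arrays lay above sensitive ones, 1 of them only just. HSP90AA1 rose by 1.35 ± 0.44 (adjusted p = 0.0489) and by 1.58 ± 0.44 (adjusted p = 0.0245). The docetaxel call held under 5 of 21 alternatives, with adjusted p up to 0.322, and the paclitaxel call under 16 of 21. In the fit of single probe sets 0 of its 4 were called in the docetaxel comparison (each at adjusted p of 0.0504 to 0.0915) and all 4 in the paclitaxel comparison.

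HSP90AB1, the constitutive form, read 2809, 3107 and 3382 in docetaxel-resistant and 3148, 2927 and 3207 in paclitaxel-resistant arrays, against 3559, 2658 and 3456 in sensitive ones. The groups overlapped throughout, and the differences were 0.013 (95% interval -0.26 to 0.29) and 0.029 (-0.25 to 0.30), with a sign that turned under other scalings. Whether the 2 genes differ in their change was not tested.

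Of the 8 genes of HSP90 and its co-chaperones 25% were called in docetaxel-resistant and 37.5% in paclitaxel-resistant cells. These stand beside 21% and 21.6% of all genes, and the first is near that background. Among the co-chaperones DNAJC7 rose in each line, and CDC37 fell in the paclitaxel-resistant line only as called. DNAJC7, which carries both a J domain and repeats that bind HSP70 and HSP90, read 83.1, 112 and 154 in docetaxel-resistant and 90.1, 80.1 and 79.6 in paclitaxel-resistant arrays, against 55.2, 37.9 and 54.2 in sensitive ones. It rose by 0.82 ± 0.16 (adjusted p = 0.00327) and by 0.55 ± 0.16 (adjusted p = 0.0265), and all resistant arrays lay above the sensitive ones. Its dim second probe set gave 0.28 (adjusted p = 0.201) and 0.065 (adjusted p = 0.815), neither called. The paclitaxel call was held under 14 of 21 alternatives. CDC37, which loads kinases onto HSP90, read 495, 587 and 553 in docetaxel-resistant and 436, 521 and 477 in paclitaxel-resistant arrays, against 798, 650 and 620 in sensitive ones. It fell by 0.52 ± 0.15 (adjusted p = 0.0269) in the paclitaxel-resistant line, held under 13 of 20 alternatives, and stood at -0.41 ± 0.15 (adjusted p = 0.0753) in the docetaxel-resistant line, although no resistant array reached the sensitive ones. STIP1, which bridges HSP70 and HSP90, differed by -0.0023 and 0.14, FKBP4, an immunophilin of steroid receptor complexes, by 0.019 and 0.14, PTGES3 (p23) by 0.27 and 0.31, and STUB1, a ubiquitin ligase that sends chaperone clients to degradation, by -0.19 and -0.28, none called.

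None of the 3 BAG factors, nucleotide exchange factors of HSP70, passed the test in either line, beside 21% and 21.6% of all genes called. BAG1 differed by 0.073 and -0.21 and BAG2 by -0.41 and -0.63. BAG3, an HSF1 target that pairs with HSPB8, read 947, 1065 and 909 in docetaxel-resistant and 769, 1003 and 856 in paclitaxel-resistant arrays, against 1195, 947 and 1398 in sensitive ones. Its differences were -0.32 (adjusted p = 0.215) and -0.44 (adjusted p = 0.0814).

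HSF1, the factor that drives the heat shock response and that acts mainly through its protein state, read 341, 287 and 286 in docetaxel-resistant and 366, 413 and 331 in paclitaxel-resistant arrays, against 246, 250 and 330 in sensitive ones. Its differences were 0.013 (adjusted p = 0.972) and 0.38 (adjusted p = 0.171). A second, dimmer probe set gave -0.49 and -0.21, so the 2 disagreed in sign in the paclitaxel-resistant and in the docetaxel-resistant line, with none called.

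In the mitochondria the chaperonin HSPD1 and the HSP70 HSPA9 rose in each line, and TRAP1 rose in the paclitaxel-resistant line. The shares called of the 5 mitochondrial members, 40% and 60%, stand beside 21% and 21.6% of all genes. HSPA9 (mortalin), which pulls proteins through the inner membrane and folds them in the matrix, read 619, 726 and 927 in docetaxel-resistant and 628, 474 and 499 in paclitaxel-resistant arrays, against 335, 175 and 372 in sensitive ones. It rose by 1.27 ± 0.19 (adjusted p = 0.000836) and by 0.84 ± 0.19 (adjusted p = 0.00814), and all 3 of its probe sets were called in each line. HSPD1 (HSP60) read 1200, 1236 and 2183 in docetaxel-resistant and 1652, 1672 and 1532 in paclitaxel-resistant arrays, against 900, 468 and 633 in sensitive ones. It rose by 1.12 ± 0.21 (adjusted p = 0.00342) and by 1.28 ± 0.21 (adjusted p = 0.0015), on both of its probe sets, with no overlap.

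HSPE1 (HSP10), the lid of the HSPD1 ring, is encoded beside HSPD1 on chromosome 2. It read 603, 903 and 1162 in docetaxel-resistant and 748, 574 and 471 in paclitaxel-resistant arrays, against 1091, 471 and 624 in sensitive ones. The groups overlapped, and its differences were 0.25 ± 0.24 (adjusted p = 0.512) and -0.23 ± 0.24 (adjusted p = 0.576). TRAP1, the mitochondrial HSP90, read 866, 966 and 866 in docetaxel-resistant and 1018, 1053 and 804 in paclitaxel-resistant arrays, against 691, 696 and 614 in sensitive ones. It rose by 0.48 ± 0.16 (adjusted p = 0.0473) in the paclitaxel-resistant line, a call held under 11 of 21 alternatives, and stood at 0.35 ± 0.16 (adjusted p = 0.142) in the docetaxel-resistant line. DNAJA3, the J-domain partner of HSPA9, differed by 0.39 (adjusted p = 0.0851) and 0.076 (adjusted p = 0.787).

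The cytosolic chaperonin is a double ring of different subunits, of which TCP1 and 6 CCT genes are members here. Of the 6 in the gene table CCT2, CCT5, CCT6A and CCT8 rose in each line, and CCT3 and CCT7 were not called. That is 66.7% in each line, beside 21% and 21.6% of all genes. Among genes at or above the median level 2232 and 2295 of 5982 were called. CCT8 read 607, 774 and 1518 in docetaxel-resistant and 1376, 878 and 844 in paclitaxel-resistant arrays, against 670, 155 and 158 in sensitive ones. It rose by 1.67 ± 0.44 (adjusted p = 0.0185) and by 1.89 ± 0.44 (adjusted p = 0.00947), with sensitive replicate 1 above 1 docetaxel-resistant array in raw intensity. The docetaxel call held under 16 of 21 alternatives and ended without docetaxel-resistant replicate 3 (1.33, adjusted p = 0.0789), without sensitive replicate 2 (1.45, adjusted p = 0.0654) and without sensitive replicate 3 (1.31, adjusted p = 0.0773). A second CCT8 probe set stood at 33.9 to 48.1 on all arrays and differed by -0.05 and -0.037. CCT6A read 201, 240 and 499 in docetaxel-resistant and 402, 283 and 269 in paclitaxel-resistant arrays, against 243, 62 and 99.2 in sensitive ones. It rose by 1.09 ± 0.35 (adjusted p = 0.0451), held under 7 of 21 alternatives with adjusted p up to 0.384, and by 1.29 ± 0.35 (adjusted p = 0.0204), held under 16 of 21.

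CCT2 and CCT5 moved by less. CCT5 read 1807, 1949 and 2529 in docetaxel-resistant and 1823, 1940 and 1770 in paclitaxel-resistant arrays, against 1773, 920 and 951 in sensitive ones. It rose by 0.78 ± 0.20 (adjusted p = 0.0148) and by 0.65 ± 0.20 (adjusted p = 0.0347), and 1 sensitive array was about as high as the lowest resistant ones. CCT2 read 1496, 1635 and 1881 in docetaxel-resistant and 1984, 1614 and 1635 in paclitaxel-resistant arrays, against 1431, 765 and 1219 in sensitive ones. It rose by 0.53 ± 0.17 (adjusted p = 0.0406) and by 0.61 ± 0.17 (adjusted p = 0.0213). The docetaxel call of CCT2 was held under 8 of 20 alternatives and its paclitaxel call under 14 of 20. The paclitaxel call of CCT5 was held under 9 of 21, and its docetaxel call under 17 of 21, ending without docetaxel-resistant replicate 3 (0.66, adjusted p = 0.0648), sensitive replicate 2 (0.70, adjusted p = 0.0518) or sensitive replicate 3 (0.63, adjusted p = 0.0601). CCT3 differed by 0.28 and 0.033, and CCT7 by -0.14 and -0.11.

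TCP1 is read by 3 probe sets that also name SNORA29, a small nucleolar RNA gene. The brightest of TCP1, 208778_s_at, read 964, 1117 and 1539 in docetaxel-resistant and 1021, 1309 and 1214 in paclitaxel-resistant arrays, against 614, 382 and 469 in sensitive ones. It rose by 1.22 ± 0.18 (adjusted p = 0.000632, over all probe sets) and by 1.25 ± 0.18 (adjusted p = 0.000504), with no overlap. The others rose in docetaxel-resistant cells only as called, by 0.91 (adjusted p = 0.0105) on 222010_at and by 0.85 (adjusted p = 0.00526) on 222011_s_at, and stood at 0.50 (adjusted p = 0.127) and 0.098 (adjusted p = 0.773) in paclitaxel-resistant cells. The difference between the lines on 222011_s_at was -0.75 (adjusted p = 0.0573).

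**Figure D4:**
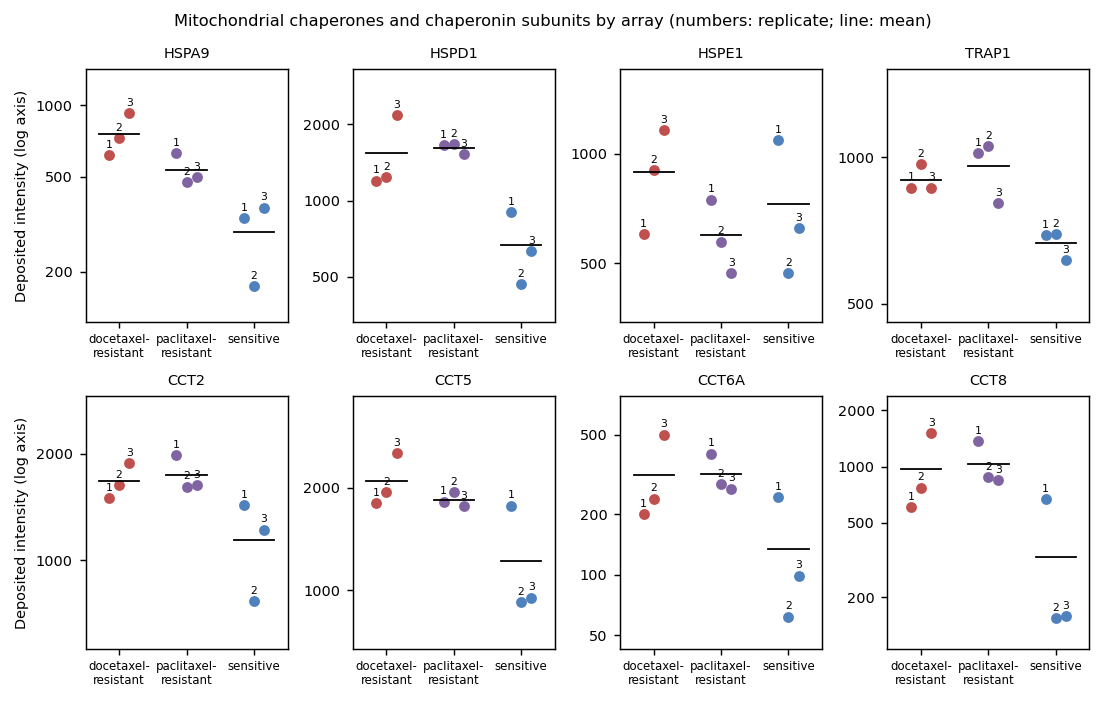
Deposited intensity (log axis) of mitochondrial chaperones and cytosolic chaperonin subunits on each array, with replicate numbers and a line at the group mean. For CCT8 and CCT6A docetaxel-resistant replicate 3, paclitaxel-resistant replicate 1 and sensitive replicate 1 stand highest in their groups.

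Several members also varied together among passages. In 12 of the 40 members, or 30%, docetaxel-resistant replicate 3, paclitaxel-resistant replicate 1 and sensitive replicate 1 were each the highest of their group, against 9.8% of all genes, a pattern chosen after the values were seen. Genes called higher in both lines showed it more often in general: 29.3% of 881 such genes did, against 53.8% of the 13 such members and 18.5% of the other 27. HSPA4, HSPH1, DNAJA1, HSP90AA1, CCT2, CCT6A and CCT8 were the 7 of those 13, and HSPA2, HSPA9 and HSPD1 did not show it. The first axis of variation within groups held 43.4% of the within-group variance of all genes.

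At the level of probe sets 26 of 74 rose and 2 fell in the docetaxel-resistant line, 37.8% beside 17.7% of all probe sets, 9.34% higher and 8.32% lower. In the paclitaxel-resistant line 28 rose and 7 fell, 47.3% beside 18.6% of all, 9.21% higher and 9.37% lower. Probe sets of 1 gene share their RNA and are not independent.

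The 2 resistant lines differed in 1 of 40 members, which is 2.5%, beside 1.96% of all genes (0.978% higher, 0.986% lower), and 5 members had an unadjusted p below 0.05. HSPA2 was lower in the paclitaxel-resistant than in the docetaxel-resistant line, with a difference of -0.69 ± 0.15 (adjusted p = 0.0448). The call held under 9 of 20 alternatives, with adjusted p of 0.0183 to 0.186, and ended when any 1 of the 6 resistant arrays was left out. DNAJA2 was next, at -0.54 ± 0.17 (adjusted p = 0.144), and HSPA9 differed by -0.42 ± 0.19 (adjusted p = 0.375), with paclitaxel-resistant arrays below docetaxel-resistant ones in both after normalisation. For HSPA4, HSP90AA1 and CCT8 the 95% intervals of the difference ran from -0.56 to 0.84, from -0.74 to 1.19 and from -0.74 to 1.17, which leaves room for differences in either direction. Among probe sets 1 of 74 was called, 1.35% beside 1.6% of all.

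Of 63 further genes of protein folding, listed by name, 58 were measured. In docetaxel-resistant cells 16 of them rose and 8 fell, and in paclitaxel-resistant cells 13 rose and 7 fell, with medians of 0.14 and 0.07. The shares called, 41.4% and 34.5%, stand beside 21% and 21.6% of all genes, whose medians were -0.051 and -0.025. Co-chaperones of HSP70 and HSP90 rose in 3 and fell in 2 of 14 in the docetaxel-resistant line, and rose in 3 and fell in 1 in the paclitaxel-resistant line, which is 35.7% and 28.6% beside 21% and 21.6% of all genes, with medians of 0.14 and -0.12. ST13, which stabilises HSP70 bound to a client, rose by 1.29 (adjusted p = 0.000143) and by 1.66 (adjusted p = 2.09e-05), PPID, a cyclophilin of HSP90 complexes, by 1.15 (adjusted p = 0.000219) and by 1.15 (adjusted p = 0.000215), and HSBP1, a small protein that binds HSF1, by 0.83 (adjusted p = 0.00386) and by 0.54 (adjusted p = 0.0345). TTC4, an HSP90 partner, fell by 0.46 (adjusted p = 0.0448) and by 0.47 (adjusted p = 0.0427). BAG6, a holdase for membrane proteins, fell by 0.46 (adjusted p = 0.0271) in the docetaxel-resistant line and stood at 0.0086 (adjusted p = 0.977) in the paclitaxel-resistant line.

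Prefoldin, which hands unfolded actin and tubulin to the chaperonin, and the cofactors that assemble tubulin dimers were listed with the subunit CCT4, and 4 of 11 rose and 1 fell in each line, 45.5% beside 21% and 21.6% of all genes, with medians of 0.40 and 0.41. PFDN1 rose by 1.00 (adjusted p = 0.000386) and by 0.67 (adjusted p = 0.0041), PFDN4 by 0.73 (adjusted p = 0.0187) and by 0.63 (adjusted p = 0.0371), and CCT4 by 0.54 (adjusted p = 0.0359) and by 0.59 (adjusted p = 0.0234). TBCC, a tubulin cofactor of the late folding step, fell by 1.20 (adjusted p = 0.000203) and by 1.32 (adjusted p = 9.84e-05).

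Of 12 ER chaperones 3 rose and 1 fell in docetaxel-resistant cells and 2 rose and 1 fell in paclitaxel-resistant cells, 33.3% and 25% beside 21% and 21.6% of all genes, and the second share is near that background. HSP90B1 (GRP94), the HSP90 of the ER, rose by 1.31 (adjusted p = 0.00179) and by 1.68 (adjusted p = 0.000369), and CANX, the lectin chaperone calnexin, by 1.20 (adjusted p = 0.000987) and by 1.37 (adjusted p = 0.000418). SDF2L1, a partner of the ER HSP70, fell by 0.61 (adjusted p = 0.0192) and by 0.73 (adjusted p = 0.00711). Of 12 further HSP70 and J-domain genes 4 rose and 1 fell in docetaxel-resistant and 3 rose and 2 fell in paclitaxel-resistant cells, 41.7% in each beside 21% and 21.6% of all genes. DNAJB4, an HSP40 of the DNAJB1 type, averaged 254 in docetaxel-resistant and 34.4 in paclitaxel-resistant arrays, against 11.5 in sensitive ones. It rose by 2.89 ± 0.44 (adjusted p = 0.000862) in the docetaxel-resistant line, stood at 0.71 ± 0.44 (adjusted p = 0.305) in the paclitaxel-resistant line, and differed between them by -2.18 (adjusted p = 0.029). HSPA12A rose by 0.68 (adjusted p = 0.00336) and by 0.45 (adjusted p = 0.0296), and DNAJC6 by 1.00 (adjusted p = 0.0153) and by 1.23 (adjusted p = 0.00469). HSPA13 was also called higher in each line. DNAJB12, a J-domain protein of the ER membrane, fell by 0.91 (adjusted p = 0.00991) and by 1.10 (adjusted p = 0.00338). DNAJC9 stood at -0.61 (adjusted p = 0.0515) in the docetaxel-resistant line and fell by 1.10 (adjusted p = 0.00259) in the paclitaxel-resistant line.

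Partners of the mitochondrial chaperones and mitochondrial proteases ran both ways. Of 9 measured, 2 rose and 3 fell in the docetaxel-resistant line and 1 rose and 2 fell in the paclitaxel-resistant line, 55.6% and 33.3% beside 21% and 21.6% of all genes, with medians of -0.11 and 0.0016. HTRA2, a protease of the intermembrane space, fell by 1.43 (adjusted p = 9.64e-05) and by 1.04 (adjusted p = 0.000694), and CLPB, a disaggregase, by 0.72 (adjusted p = 0.00717) and by 0.96 (adjusted p = 0.00126). AFG3L2, a protease of the inner membrane, rose by 0.69 (adjusted p = 0.00329) and by 0.58 (adjusted p = 0.00856), and CLPX, which unfolds substrates for the protease CLPP, rose by 1.17 (adjusted p = 0.00775) in the docetaxel-resistant line and stood at 0.56 (adjusted p = 0.161) in the paclitaxel-resistant line.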

How the data were processed

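Total RNA of 9 cultures, 5 µg each, was labelled with biotin and hybridised to Affymetrix arrays. Per the submitters' processing notes the deposited values were made with Affymetrix Expression Console 1.1.2 and PLIER, which summarises probes into 1 intensity per probe set on a linear scale; how the authors corrected background or normalised is not given in the sources used. Of 22283 probe sets 68 controls were left out. Here intensities became log2(intensity + 16) and were quantile-normalised, since array medians spanned 0.27 on that scale. Of the 22215 human probe sets 19065 named 1 gene, 1043 several and 2107 none in the platform annotation, and 19053 were matched to RefSeq symbols. Per gene the single-gene probe set with the highest mean over the 9 arrays was kept.

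Differences were tested with limma 3.58.1 (R 4.3.3), by fitting group means to all 9 arrays at once, with 3 contrasts and eBayes (6 residual and 5.40 prior degrees of freedom). Two-sided p-values received the Benjamini-Hochberg adjustment across the whole table of genes, or of probe sets, in each contrast, and calls were made below 0.05. The median standard error was 0.16. Only the fit was tested on simulated data, without the normalisation or the choice of probe sets. The simulated noise was independent between genes, which that of the arrays need not be. Values on every array were given for members called in at least 1 contrast and for HSPA1A, HSPA8, HSP90AA1, HSP90AB1, HSPB1, HSPD1 and HSF1. BAG3, HSPE1 and the chromosome 6 neighbours were added after their values were seen. Of each further list, up to 4 called genes per comparison with the smallest adjusted p were eligible. The members and lists were chosen with earlier results of these data known. Replicate numbers did not pair the samples: deviations from group means correlated at -0.452 to 0.337 between arrays of the same number and at -0.452 to 0.474 between arrays of different numbers. Alternatives were other scalings, pseudocounts of 1 and 64, a filter on dim genes, other choices of probe set, other eBayes settings, fits of only 2 groups, a replicate block, leaving out each array and 2 alternatives added after seeing the data.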

Additional observations from a re-analysis of the deposited data

Results flagged for a closer look

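HSPA2 was the single member whose difference from sensitive cells differed between the 2 resistant lines by a test of that difference, at -0.69 (paclitaxel-resistant minus docetaxel-resistant, adjusted p = 0.0448). Paclitaxel-resistant arrays read 105, 71.2 and 86.2, docetaxel-resistant arrays 154, 172 and 160. The call held under 9 of 20 alternatives, with adjusted p up to 0.186, and the share of members called, 2.5%, is near the 1.96% of all genes.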

How the results depend on the processing

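Of 33 gene-level calls of members, 15 held under every alternative that gave a value, 18 were lost under at least 1, and 2 of those 18 turned sign. The 15 were both calls of HSPA2, HSPA4, DNAJA2, HSPA9 and HSPD1 against sensitive cells, the docetaxel calls of HSPB8 and DNAJC7 and the paclitaxel calls of HSPH1, DNAJA1 and HSPB1. Both CCT8 calls turned, to -0.05 in docetaxel-resistant and -0.037 in paclitaxel-resistant cells, when _x_at and _s_at probe sets were dropped, which leaves only its dim probe set.

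The count of members in the docetaxel comparison (14) was 7 of 25 without those probe sets and 9 to 14 with 1 array left out; the count in the paclitaxel comparison (18) was 8 of 25 and 11 to 18. Without those probe sets 8369 genes were tested, against 11963. The all-gene counts were then 1431 (against 2510), 1495 (against 2579) and, between the lines, 110 (against 235). Member probe sets (28 and 35 called) were then 9 of 31 in each comparison, and 23 in the paclitaxel comparison with a pseudocount of 1. Calls over all probe sets were not counted under the alternatives, so these counts have no share beside them. With 1 array left out they ran from 22 to 32 and from 24 to 33, and all genes from 1643 to 2582 and from 1896 to 2707. Without docetaxel-resistant replicate 3 and sensitive replicate 2, the arrays of extreme median, an alternative added after seeing the data, members in the docetaxel comparison were 9 (8 higher, 1 lower), their probe sets 18 and all genes 1338.

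Between the lines the 1 member and the 1 member probe set called, both HSPA2, went to 0 without quantile normalisation and with a pseudocount of 1. They also went to 0 with eBayes set to a trend and a robust spread, and without the arrays of extreme median. With 1 array left out they ran from 0 to 1. Without _x_at and _s_at probe sets they were 0 too, but HSPA2 has only 1 probe set, an _s_at one, and was then not tested. Member probe sets were 2 with a pseudocount of 64 and 2 with the filter on dim genes. With the first within-group axis as a covariate, also added, which by construction leaves the differences as they were and narrows their errors, 2 members and 4 member probe sets were called. All genes were then 622, and 143 without quantile normalisation, 78 and 392 with pseudocounts of 1 and 64, 136 without the arrays of extreme median and 78 to 280 with 1 array left out. With the replicate block, whose numbers did not pair the samples, 0 members, 0 member probe sets and 139 genes were called between the lines. The cause of these moves was not tested.

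Differences near 0 turned sign. HSP90AB1 stood at -0.049 in docetaxel-resistant and -0.048 in paclitaxel-resistant cells without quantile normalisation, at -0.18 and -0.13 with median centring, at -0.031 and -0.018 with the mean of its probe sets, and at -0.083 and -0.013 without the arrays of extreme median. With 1 array left out it ran from -0.043 to 0.058 and from -0.024 to 0.074. HSF1 in docetaxel-resistant cells stood at -0.24 with the mean of its probe sets and from -0.14 to 0.11 with 1 array left out. With 3 arrays a group and no detection calls, dim members such as HSPA4L, HSPB2 and CRYAB could not be told from background.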
